A study of Mus musculus with 35 samples.

Results

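Immortalized mouse embryonic fibroblasts (MEFs) that had lost their own NELFB carried either wild-type NELFB (WT) or the mutant MT486, and their poly(A) RNA was compared 7 days after adenoviral Cre. The comparison rests on 4 of the 35 libraries of the series: MT486-Cre in experiments 1 and 2 and WT-Cre in experiments 1 and 2. It asks which transcripts the mutant failed to bring back to the level that WT gave. All cells had the genotype Nelfb flox/-, in which 1 allele is already lost and Cre removes the other, and all were grown in DMEM with 10% FBS. Each population carried a lentiviral pLenti construct: an empty vector (EV), WT or MT486, the NELFB proteins with a flag tag at the C terminus. An adenovirus with Cre and GFP (Ad-Cre-GFP) gave the groups EV-Cre, WT-Cre and MT486-Cre, and an adenovirus with GFP alone (Ad-GFP) gave EV-GFP, WT-GFP and MT486-GFP. Each group held 2 populations, 1 from each experiment. The construct is expressed from the vector and not from Nelfb's own promoter, and the populations were pools of infected cells, so cells that escaped Cre stay in the counts. As a separate source, 3 clones with pLenti-MT486 and 3 clones labelled WT(N48), with wild-type NELFB from the vector pBabe, each grown from a single cell after Ad-Cre, were also compared. The series also holds 3 clones labelled WT. They were not the main comparison because the libraries labelled WT clone 1 and clone 3 held 200 and 306 Nelfb reads, against 2637 in clone 2 and 1606 to 4758 in the WT(N48) clones, and their values are given as an alternative.

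NELF is a complex of NELFA, NELFB, NELFC (or its shorter form NELFD) and NELFE that binds RNA polymerase II soon after initiation and holds it at the promoter-proximal pause. NELFB bridges NELFE to the pair of NELFA and NELFC, and loss of one subunit lowers the protein of the others. MT486 is an alanine substitution that no longer binds NELFE, keeps at least part of its binding to NELFA and NELFC, and is mostly nuclear.

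The libraries held 20175394 and 23819233 reads on genes in MT486-Cre and 22704317 and 21151468 in WT-Cre. Reads outside annotated genes made up 14.6% and 19.7% in MT486-Cre and 11.7% and 15.2% in WT-Cre, higher in the mutant within each experiment, and their part in the results was not tested. Levels are given as CPM, read counts scaled to a common library size after TMM normalization. Changes are log2 fold changes of MT486-Cre over WT-Cre from 1 model of all 20 populations with the experiment as a block, with genes called where the adjusted p was below 0.05 and the absolute log2 fold change above 0.5. The cells carried fibroblast transcripts. Of 14 fibroblast markers, 13 passed the filter on low counts and none was called by edgeR or DESeq2 (4 at an unadjusted p below 0.05), with a summed level of 22165 and 37072 CPM in MT486-Cre and 24735 and 33879 CPM in WT-Cre. Fn1 was the most abundant of them, and Thy1 was at 0 in both MT486-Cre libraries and in both EV-GFP libraries. The epithelial markers summed to 5.69 and 4.26 CPM in MT486-Cre, the endothelial markers to 1.25 and 1.69 CPM and the skeletal muscle markers to 0.358 and 0.754 CPM. Epcam, Krt8, Krt14, Myod1 and Ckm were at 0 in both MT486-Cre libraries, and all of these but Epcam also in both WT-Cre libraries. The macrophage and leukocyte markers, nearly all of them Cd14, summed to 240 and 287 CPM in MT486-Cre and 355 and 411 CPM in WT-Cre, with Adgre1 at 0. The neural and glial markers summed to 10.5 and 8.12 CPM against 8.19 and 10.3 CPM.

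Nelfb itself (chr2:25199712-25211489, minus strand, mm10) was measured first. EV-GFP held 46.1 and 39.5 CPM, and EV-Cre held 7.97 and 5.46 CPM, a log2 fold change of -2.67. WT-Cre held 75.9 and 60.5 CPM, and MT486-Cre held 116 and 128 CPM. Nelfb reads in MT486-Cre were thus 1.80 times those in WT-Cre (log2 fold change 0.85 ± 0.15 SE, adjusted p = 0.0038), and both rescues lay above EV-GFP. This call was lost without the block, and without either the MT486-Cre or the WT-Cre library of experiment 2. Over the alternatives the log2 fold change of Nelfb lay between 0.70 and 0.99. With Ad-GFP the constructs gave similar totals, with 97.5 and 82.8 CPM in WT-GFP and 92.9 and 78.6 CPM in MT486-GFP. Reads of the endogenous gene and of the construct cannot be told apart in these counts. The other subunits were not called: Nelfa had a log2 fold change of -0.06, Nelfe of -0.04 and Nelfcd, which encodes NELFC and NELFD, of 0.11. None of 16 genes for pausing and pause release, such as Cdk9, Hexim1 and Supt5, was called by edgeR or DESeq2 (5 at an unadjusted p below 0.05), with log2 fold changes between -0.30 and 0.41.

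MT486-Cre differed from WT-Cre at 723 of 13805 genes tested (5.24%), 376 higher (2.72%) and 347 lower (2.51%). All 723 had the same sign in both experiments. Of all genes tested, 33.5% were lower and 33.0% higher in MT486-Cre in both experiments. For 670 of the 723 the 2 groups' CPM did not overlap, which was so for 34.6% of all genes tested. The 723 were called from these same libraries, so neither count is separate support. Without the experiment as a block 15 genes were called, 13 lower and 2 higher. Without the MT486-Cre library of experiment 2 the count was 239, and without the WT-Cre library of experiment 2 it was 245. The absolute log2 ratio was larger in experiment 2 for 496 of the 723 genes, with a median of 0.840 against 0.679 in experiment 1. In bulk RNA, fewer cells of a kind and less RNA per cell cannot be told apart.

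**Figure D1:**
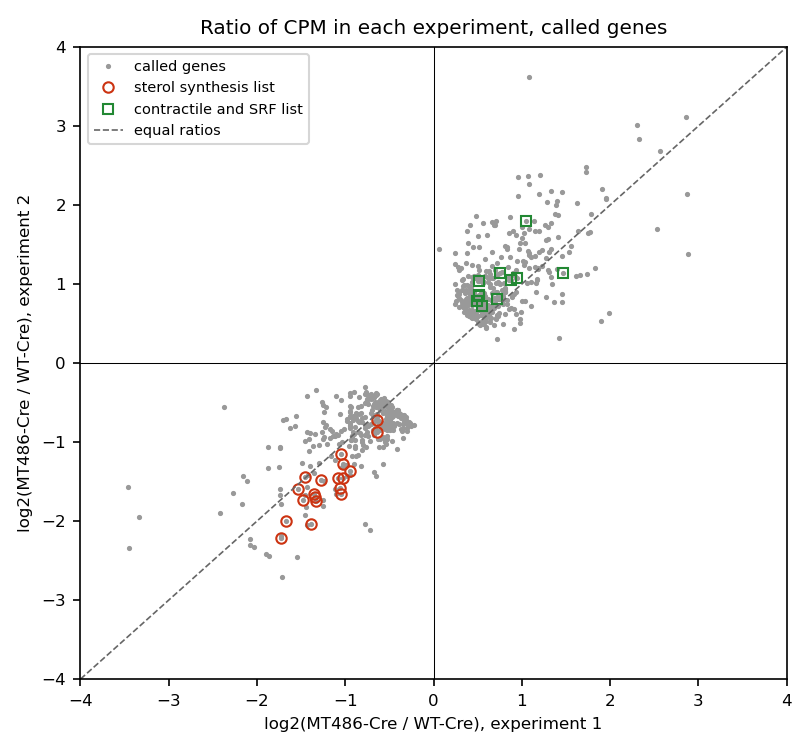
Log2 ratio of MT486-Cre to WT-Cre CPM in experiment 1 (horizontal axis) and experiment 2 (vertical axis) for the 723 called genes (grey points), with sterol synthesis genes as red circles, contractile and SRF genes as green squares and a dashed line of equal ratios. All points lie where both ratios have the same sign, and the median absolute ratio was 0.679 in experiment 1 and 0.840 in experiment 2. The genes were called from these same libraries.

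The genes that move when NELFB is lost were taken from EV-Cre against EV-GFP, which shares no library with MT486-Cre or WT-Cre. Deletion without rescue lowered 1793 genes (13%) and raised 1709 (12.4%), 3502 in all (25.4%). MT486-Cre was called below WT-Cre at 298 of the genes that loss lowered (16.6%), against 0.456% of the 10303 genes that loss did not change. It was called above WT-Cre at 258 of the genes that loss raised (15.1%), against 1.12% of the unchanged genes. The opposite direction was rare, with 3 loss-lowered genes called higher and 2 loss-raised genes called lower. These were Nelfb, Col2a1 (type II collagen) and Prrt2 on one side and Ifi27l2a and Trim14 on the other. Of the genes called lower in MT486-Cre, 85.9% were loss-lowered, and of those called higher, 68.6% were loss-raised. The 556 genes in the direction of loss became 206 without the MT486-Cre library of experiment 2, 215 without the WT-Cre library of experiment 2, and 12 without the block.

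Over all loss genes, called or not, the differences leaned the same way by a small amount. The median log2 fold change was -0.30 over the loss-lowered genes and 0.30 over the loss-raised genes, against 0.00 over all genes. Among loss-lowered genes 73.8% were below WT-Cre in both experiments, against 33.5% of all genes, and among loss-raised genes 72.3% were above it in both, against 33.0%. A line through 0 over the 3502 loss genes had a slope of 0.331, so a gene changed by loss lay on average about that fraction of its change away from WT-Cre. Genes are not independent replicates, and the slope is a description of these 8 libraries. For 769 loss genes (22.0%) the 95% interval of the difference excluded a shift of 0.5 times the loss or more. Intervals that lay wholly beyond 0.5 times the loss were not counted. The median half-width of the interval over loss genes was 0.321. MT486-Cre was itself called against EV-Cre at 1236 genes (8.95%), 662 higher (4.8%) and 574 lower (4.16%), and WT-Cre against EV-Cre at 3175 (23%), 1534 higher (11.1%) and 1641 lower (11.9%), comparisons that share the EV-Cre libraries. The count of 1236 was 374 without MT486-Cre replicate 1, 474 without EV-Cre replicate 2 and 50 without the block, and that of 3175 was 1018 without the block.

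**Figure D2:**
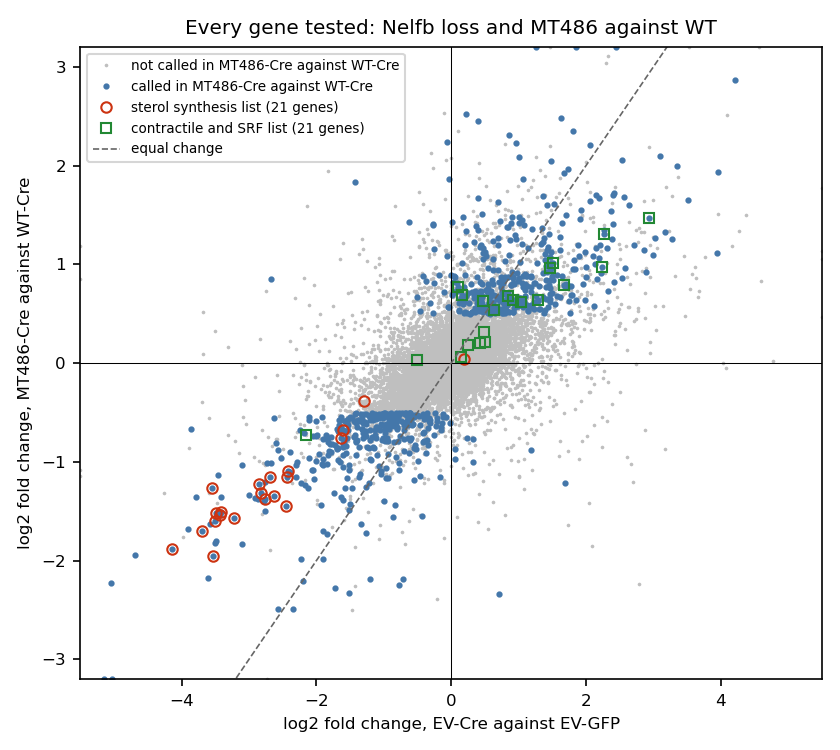
Each point is one of 13805 genes, with the log2 fold change of EV-Cre against EV-GFP on the horizontal axis and of MT486-Cre against WT-Cre on the vertical axis. Blue points are the 723 called genes, red circles and green squares are the sterol and contractile lists, the dashed line marks equal change, and 17 genes beyond the axes are drawn at the edge. The sterol genes called lower lie at the lower left, between the horizontal axis and the dashed line, with list medians of -2.82 on the horizontal and -1.35 on the vertical axis.

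Among the gene lists, the 2 parts of cholesterol synthesis had the largest shares called lower. Cholesterol is made from acetyl-CoA through mevalonate, farnesyl diphosphate, squalene and lanosterol, and the transcription factor SREBF2 (SREBP2) drives the genes of the whole path when sterol in the endoplasmic reticulum is low, with NFY bound to nearby CCAAT boxes. MT486-Cre was called lower at 19 of 21 sterol synthesis genes tested, against 2.51% of all genes, and none was called higher. Their median log2 fold change was -1.35, with medians of -1.08 in experiment 1 and -1.48 in experiment 2, and 20 of the 21 were lower in both. The same list fell in EV-Cre at 20 of 21 genes with a median of -2.82. Without the block 2 of the 19 were called, while without any 1 of the 4 libraries 13 to 18 were called and the median stayed between -1.23 and -1.49 in every alternative.

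The enzymes up to farnesyl diphosphate were called at 8 of 9 genes. Hmgcs1, which makes HMG-CoA (chr13:119690379-119708260, plus strand), held 352 and 295 CPM in WT-Cre and 140 and 87.9 CPM in MT486-Cre, a log2 fold change of -1.54 ± 0.18 (SE, adjusted p = 0.00021). In EV-GFP it held 562 and 457 CPM and in EV-Cre 57.8 and 38.3 CPM, so the mutant lay between the empty vector and WT, and WT itself lay below EV-GFP. Mvd, mevalonate diphosphate decarboxylase (chr8:122433601-122443422, minus strand), had the largest change of the list. It held 68.0 and 54.2 CPM in WT-Cre, 20.4 and 11.7 CPM in MT486-Cre, 106 and 81.2 CPM in EV-GFP and 8.60 and 7.53 CPM in EV-Cre. MT486-Cre reached 25.8% of the WT-Cre level of Mvd (log2 fold change -1.96 ± 0.14 SE, adjusted p = 1e-06). Fdps, farnesyl diphosphate synthase (chr3:89093588-89101959, minus strand), held 75.5 and 69.9 CPM in WT-Cre against 28.8 and 16.9 CPM in MT486-Cre (-1.71 ± 0.27, adjusted p = 0.0043). Acat2 changed by -1.35, Mvk by -1.22 and Pmvk by -0.76 on the log2 scale. Idi1, the isopentenyl diphosphate isomerase, fell to 27.1% of WT-Cre but had only 5.09 and 5.10 CPM in WT-Cre. Ggps1, which leads from farnesyl diphosphate to protein prenylation and not to sterol, had a log2 fold change of 0.04 and was not lowered by loss.

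The path from squalene to cholesterol was called at 11 of 12 genes. Nsdhl, the sterol 3-dehydrogenase (chrX:72918557-72958514, plus strand), held 75.4 and 81.7 CPM in WT-Cre and 27.0 and 24.6 CPM in MT486-Cre (-1.60 ± 0.15, adjusted p = 1.9e-05). Cyp51, lanosterol demethylase (chr5:4081145-4104746, minus strand), held 222 and 276 CPM in WT-Cre and 87.1 and 85.2 CPM in MT486-Cre (-1.52 ± 0.25, adjusted p = 0.004). In both genes every mutant library lay below every WT library, with no overlap. Tm7sf2, the sterol 14-reductase, changed by -1.57, Msmo1 by -1.51, Dhcr7 by -1.45, Lss by -1.37, Fdft1 (squalene synthase) by -1.31, Hsd17b7 and Sqle by -1.15 each and Sc5d by -0.68. Ebp, the sterol isomerase, had a log2 fold change of -0.38 and did not reach the threshold on size.

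Sequence just upstream of 3 of these genes and of the contractile gene Myl9 is shown because it holds the letters that the known regulators of the 2 groups bind. The windows are from RefSeq (build GRCm38.p6), up to 250 bases before the annotated start, 5′ to 3′ on the strand of the gene. They lie at chr8:122443423-122443672 (Mvd, minus strand), chr13:119690101-119690350 (Hmgcs1, plus), chrX:72918271-72918520 (Nsdhl, plus) and chr2:156775214-156775419 (Myl9, plus). Capitals mark CCAAT on either strand (read as ATTGG on the other) and TCACNCCAC in the sterol genes, and the CArG box in Myl9.
Mvd: @
Hmgcs1: @
Nsdhl: @
Myl9: @

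The letters CCAAT, the core of the NFY site, lay within 250 bases upstream in 15 of the 16 sterol synthesis genes with a matched window (93.8%), against 40.7% of the 10889 tested genes with one. They lay in 49.8% of 249 matched genes called lower and in 40.5% of 291 called higher. The same letters lay in 7 of 11 fatty acid synthesis genes (63.6%) and in 13 of the 18 matched contractile and SRF genes (72.2%). Of the 21 contractile and SRF genes tested, 11 were called higher and 0 lower. In Mvd, matches lay 27 to 23 and 60 to 56 bases before the start, in Nsdhl 20 to 16 and 109 to 105, and in Hmgcs1 45 to 41, 176 to 172 and 237 to 233. TCACNCCAC, a form of the sterol regulatory element, was found in 1 of the 16, Hmgcs1, as TCACCCCAC 137 to 129 bases before the start, against 1.33% of tested genes. Both strands were searched, the motifs do not overlap in the windows shown, and a match of letters does not show that a factor binds there.

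Genes that sense and take up sterol followed the enzymes in part, with 5 of 13 called lower (2.51% of all genes) and a median of -0.50. Insig1, which retains the SREBP escort in the endoplasmic reticulum, held 122 and 124 CPM in WT-Cre and 44.8 and 35.0 CPM in MT486-Cre (-1.63 ± 0.23, adjusted p = 0.0018). The sterol carrier gene Stard4 changed by -1.20 and Srebf2 by -0.74. Srebf1 (0.01), Scap (-0.03), Insig2 (-0.14) and Npc1 (-0.06) were not called, and none of these 4 was called in EV-Cre.

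Fatty acid synthesis was called lower at 10 of 14 genes (2.51% of all genes), with a median of -0.67, and fell in EV-Cre at 12 of 14 (13% of all genes) with a median of -1.35. The stearoyl-CoA desaturases changed most. Scd2 (chr19:44293674-44306864, plus strand) held 2095 and 2702 CPM in WT-Cre and 775 and 907 CPM in MT486-Cre (-1.50 ± 0.12, adjusted p = 1.6e-06), and Scd1 held 237 and 295 CPM against 99.9 and 105 CPM (-1.36 ± 0.11, adjusted p = 1e-06). Fasn, the fatty acid synthase (chr11:120805846-120824547, minus strand), held 577 and 566 CPM in WT-Cre and 387 and 335 CPM in MT486-Cre, with 726 and 737 CPM in EV-GFP and 282 and 301 CPM in EV-Cre. The mutant thus held 63.2% of the WT level of Fasn (-0.66 ± 0.10, adjusted p = 0.00052), and its difference from EV-Cre (log2 fold change 0.31) did not reach the threshold. Acss2 (-0.93), Fads1 (-0.92), Elovl6 (-0.90), Fads2 (-0.89), Acly (-0.68), Acsl3 (-0.59) and Acaca (-0.53) completed the called genes. Without the block 1 of the 10 was called. The adipocyte markers, mostly Fabp4, summed to 91.2 and 64.4 CPM in MT486-Cre and 114 and 99.9 CPM in WT-Cre. Adipoq, Plin1, Cfd, Lep and Cidec were at 0 in both mutant libraries, and Plin1, Cfd and Lep also in both WT-Cre libraries. The part of these markers in the lipid genes was not tested.

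**Figure D3:**
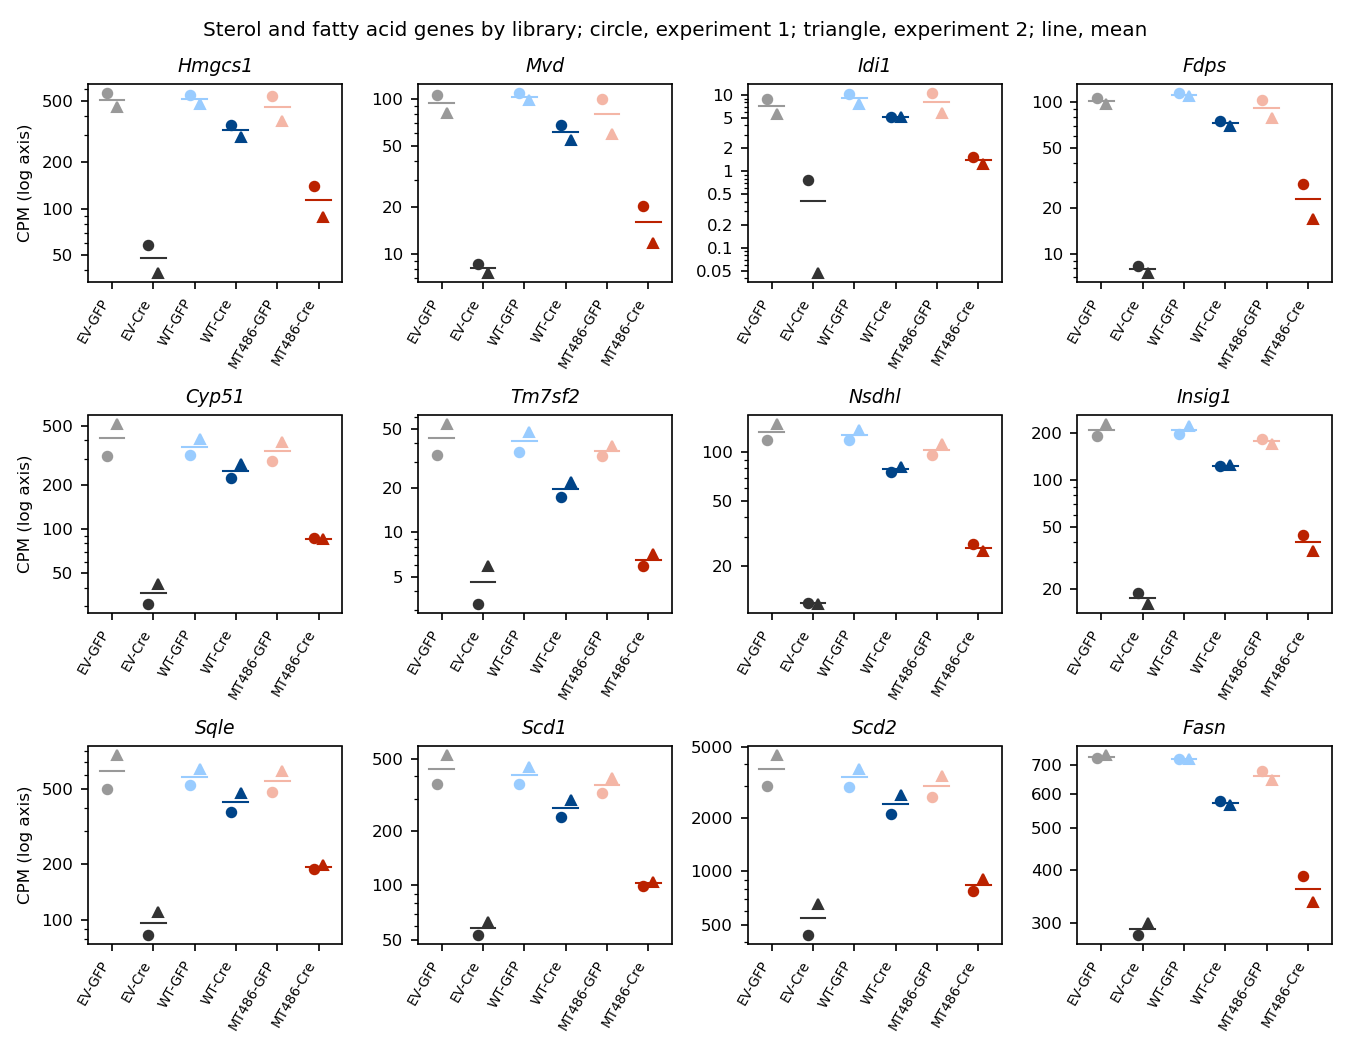
CPM on a log axis of 12 sterol and fatty acid genes in the 6 groups, with a circle for experiment 1, a triangle for experiment 2 and a line at the mean of the 2. In every panel both MT486-Cre points lie below both WT-Cre points and, except for 1 library of Tm7sf2, above both EV-Cre points, and none of the 12 genes was called between MT486-GFP and WT-GFP.

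Loss lowered 13 of 26 citrate cycle genes and 25 of 75 nuclear-encoded respiratory chain genes, which make the enzymes of mitochondrial energy production, against 13% of all genes called lower in EV-Cre. Between MT486-Cre and WT-Cre, against 2.51% of all genes called lower and 2.72% called higher, 2 of the 26 citrate cycle genes were called lower, Idh1 (-1.03, the cytosolic NADP-dependent isocitrate dehydrogenase) and Pcx (-0.56, pyruvate carboxylase), and the median was -0.25 against -0.48 for the same list in EV-Cre. Of the 75 respiratory chain genes 1 was called lower, Atp5e (-0.52), with a median of -0.21 against -0.36 in EV-Cre, and 61 of the 75 were below WT-Cre in both experiments. The share called, 1.33%, did not exceed that of all genes called lower. Without the WT-Cre library of experiment 1 the counts were 6 for each list, and without the MT486-Cre library of experiment 2 they were 1 and 0. In fatty acid oxidation Echs1 fell (-0.64) while Cpt1a, the carnitine palmitoyltransferase of the outer membrane (0.66), and Pdk4 (0.58) rose, of 23 genes. The number called higher in this list was 1 without any 1 of the 4 libraries other than the MT486-Cre library of experiment 1, and Pdk4 was not called there, with log2 fold changes of 0.28 to 0.84 over the alternatives. Among 73 cytosolic ribosome genes 6 were called lower and 1 higher, with a median of -0.25, beside the same 2.51% and 2.72% of all genes. Many of these genes have near-identical copies in the genome and reads of low mapping quality were dropped, so their values are uncertain, and the number called lower was 16 without the WT-Cre library of experiment 1 but 0 to 2 without any other 1 of the 4 libraries.

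On the other side, smooth-muscle contractile and SRF-dependent genes were the group with the largest share called higher. SRF with its actin-sensing cofactors MKL1 and MKL2 binds CArG boxes in genes for actin, calponin and other parts of the contractile apparatus, and fibroblasts that turn them on become myofibroblast-like. Of 21 genes tested 11 were called higher in MT486-Cre, against 2.72% of all genes, and none lower, with a median of 0.64. In EV-Cre 12 were higher (12.4% of all genes) and 2 lower (13%), with a median of 0.63, and 2 of these genes were called in the difference of the Cre effects. Without the block 1 of the 11 was called, and without 1 library 6 to 10 were called.

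Acta2, the smooth-muscle actin (chr19:34241090-34255590, minus strand), held 62.0 and 64.2 CPM in WT-Cre and 128 and 223 CPM in MT486-Cre (1.46 ± 0.19, adjusted p = 0.00098). In EV-GFP it held 17.8 and 15.9 CPM and in EV-Cre 134 and 123 CPM, so the mutant libraries lay in or above the range of the empty vector and WT lay between. Cnn1, calponin 1 (chr9:22099216-22109630, plus strand), held 5.63 and 7.16 CPM in WT-Cre and 15.6 and 15.9 CPM in MT486-Cre (1.30 ± 0.18, adjusted p = 0.00034), above the 11.0 and 7.53 CPM of EV-Cre. Myl9, the regulatory myosin light chain (chr2:156775420-156781658, plus strand), held 48.4 and 43.5 CPM against 93.1 and 91.5 CPM (1.01 ± 0.16, adjusted p = 0.0012). In all 3 genes the mean of MT486-Cre lay above that of EV-Cre, and for Cnn1 this difference was itself called (log2 fold change 0.77, adjusted p = 0.007 by edgeR). Tagln (0.97), Synpo2 (0.97), Actg2 (0.79), Actg1 (0.77), Smtn (0.69), Tpm2 (0.68), Filip1l (0.64) and Flna (0.64) were also called, while Srf (0.53), Vcl (0.62), Mkl1 (0.03), Mkl2 (0.18) and Cald1 (0.06) were not. Mylk, the myosin light chain kinase, had a log2 fold change of -0.73, fell in EV-Cre and was called lower by DESeq2 alone. A CArG box lay upstream of 6 of 18 matched genes of this list (33.3%), Cnn2, Myl9, Vcl, Srf, Filip1l and Actg1, against 1.45% of tested genes. In Myl9 it lay 161 to 152 bases before the RefSeq start. That start lies downstream of the printed window, which stops at the gene start given above. The box is therefore nearer to the end of the printed window than these positions.

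Matricellular genes and targets of YAP with TEAD, the transcription factors of the Hippo pathway, held several of the 12 largest increases among genes with at least 50 counts on average. Of 20 targets 5 were called higher, Ctgf, Cyr61, F3, Ankrd1 and Nt5e, and 1 lower, Igfbp3 (-0.80), with a median of 0.15, against 2.72% of all genes called higher. The number called higher was 2 without either library of experiment 2 and 0 without the block (6 by DESeq2). Ctgf, connective tissue growth factor, held 121 and 125 CPM in WT-Cre and 400 and 697 CPM in MT486-Cre, a 4.28-fold difference (2.10 ± 0.32, adjusted p = 0.0035). Its EV-GFP values were 70.1 and 73.5 CPM and its EV-Cre values 452 and 834 CPM. Cyr61 held 204 and 298 CPM in WT-Cre and 533 and 1195 CPM in MT486-Cre (1.70 ± 0.24, adjusted p = 0.001). The groups did not overlap in either gene, but experiment 2 gave the higher mutant value in both. Thbs1, thrombospondin 1 (chr2:118111876-118127133, plus strand), held 358 and 401 CPM against 945 and 1654 CPM (1.72 ± 0.31, adjusted p = 0.0064). Of 20 genes of the TGF-beta pathway 4 were called higher, among them Skil (0.65), Smad7 (0.95) and Id1 (0.51), and Col12a1 (0.88) and P4ha3 (0.81) joined Thbs1 among 29 collagen and matrix genes. Without any 1 library 2 TGF-beta pathway genes were called, and without either library of experiment 2 the collagen and matrix list had 0 called and a median below 0. Col1a1 (-0.23), Col1a2 (-0.32) and Fn1 (0.25) were not called. The letters CATTCC, the core of the TEAD site, lay upstream of 7 of 14 matched YAP targets and 9 of 18 contractile genes, against 12.8% of tested genes. The letters TGANTCA, to which AP-1 binds, lay upstream of 0 of 17 matched immediate early genes, against 5.88% of tested genes.

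Some ligands and response genes of growth factor signalling were called higher, in each list a minority of the genes tested, against 2.72% of all genes. Of 8 EGF-family ligands and receptors 2 were called, and 1 without either library of experiment 2. Ereg, epiregulin, a ligand of the EGF receptor (chr5:91074622-91093646, plus strand), held 33.4 and 41.6 CPM in WT-Cre and 112 and 130 CPM in MT486-Cre (1.70 ± 0.14, adjusted p = 3e-06). In EV-GFP it held 22.7 and 31.8 CPM and in EV-Cre 127 and 156 CPM, so the mutant lay at nearly the level of the empty vector. Hbegf, a ligand of the same receptor, held 30.4 and 31.4 CPM against 62.2 and 90.6 CPM (1.27 ± 0.27, adjusted p = 0.016). The receptor Egfr (-0.03) was not called. Of 22 immediate early and AP-1 genes 6 were called higher, Maff (0.82), Fosl1 (0.86), Ier5 (0.65), Myc (0.63), Atf3 (0.57) and Ier3 (0.55), and none lower. Of 16 feedback genes of the ERK pathway 4 were called higher, Spred3 (0.81), Dusp1 (0.79), Etv4 (0.63) and Errfi1 (0.51), with a median over the list of 0.52. None of 27 kinases and regulators of the PI3K-AKT and RAF-MEK-ERK pathways was called by edgeR or DESeq2 (5 at an unadjusted p below 0.05), and their log2 fold changes lay between -0.32 and 0.29. Among 21 chemokine and IL-6 family genes 5 were higher, Il6 (1.00), Lif (0.95), Csf1 (0.79), Ccl7 (0.73) and Ccl2 (0.67). Myc held 88.4 and 81.0 CPM in WT-Cre, 129 and 132 CPM in MT486-Cre, 72.1 and 57.1 CPM in EV-GFP and 228 and 204 CPM in EV-Cre, which placed the mutant between WT and the empty vector. Without 1 library 2 to 3 of the immediate early genes, 1 to 3 of the ERK feedback genes and 0 to 4 of the chemokine genes were called.

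**Figure D4:**
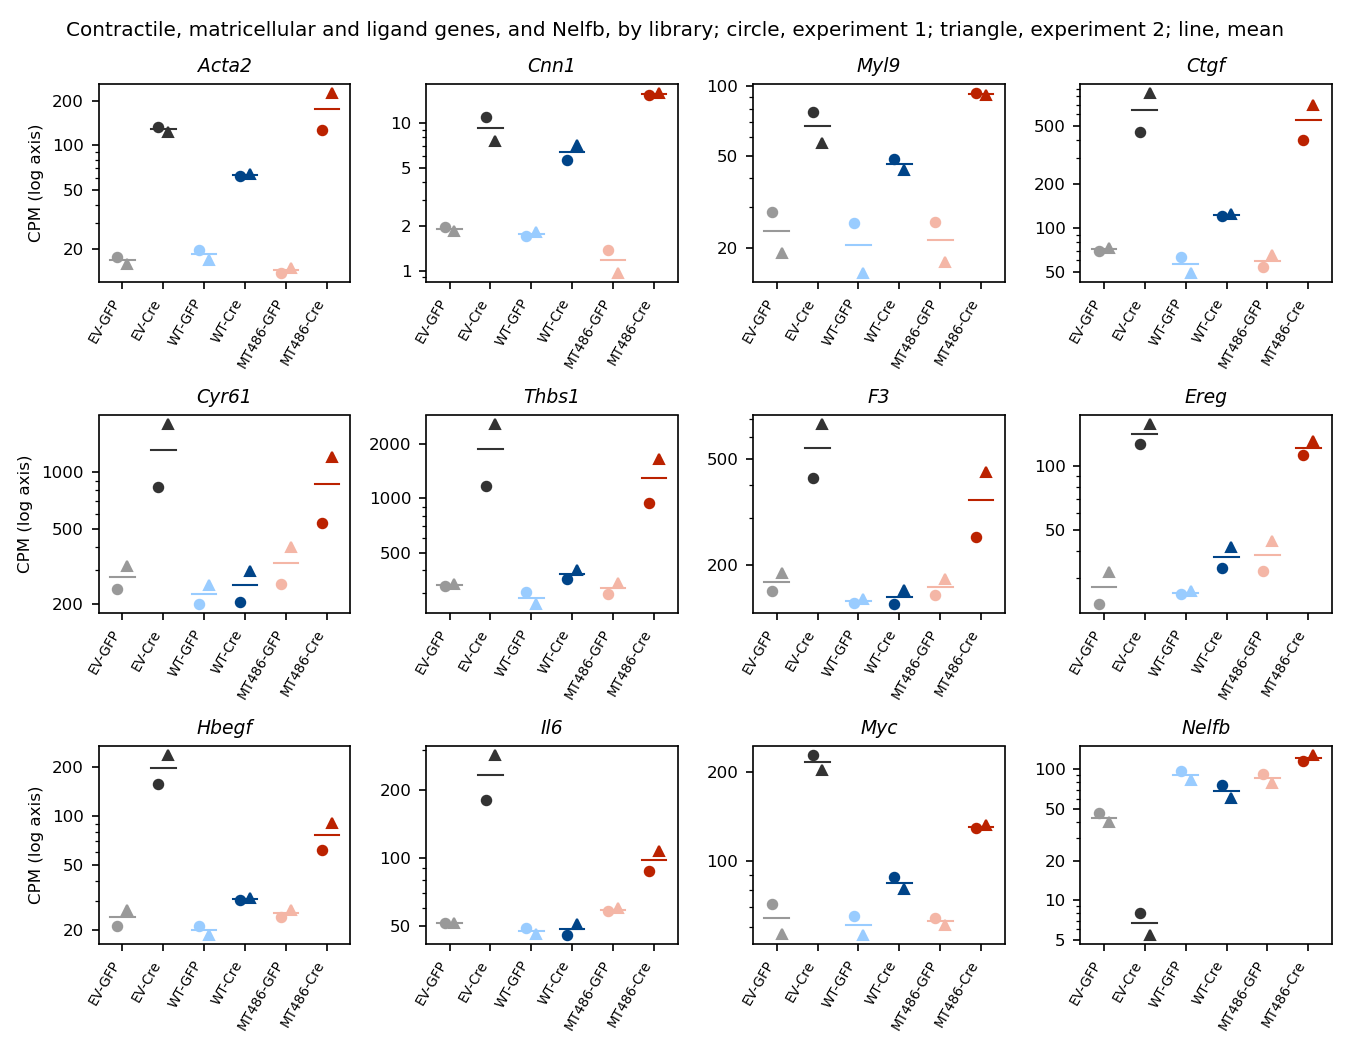
CPM on a log axis of 11 genes that were higher in MT486-Cre and of Nelfb in the 6 groups, with a circle for experiment 1, a triangle for experiment 2 and a line at the mean. Acta2, Cnn1 and Myl9 reach or exceed EV-Cre in MT486-Cre, whereas Hbegf, Il6 and Myc lie between WT-Cre and EV-Cre.

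Outside these groups, the genes with the largest decreases were chosen by size among called genes with at least 50 counts on average. Lipg, endothelial lipase, held 7.90 and 11.9 CPM in WT-Cre and 2.37 and 1.77 CPM in MT486-Cre. H19, an imprinted noncoding RNA (chr7:142575529-142578143, minus strand), held 46.5 and 35.9 CPM against 11.3 and 7.10 CPM (-2.18 ± 0.33, adjusted p = 0.0029). The groups did not overlap in either gene, and MT486-Cre held 21.3% of the WT-Cre level of Lipg and 22.0% of that of H19. Inmt, a methyltransferase of indole amines, fell to 25.3% of WT-Cre, Adh1, an alcohol dehydrogenase, to 28.2%, and Fmo1, a flavin monooxygenase, to 31.3%. H19, Inmt and Adh1 were all lowered by loss, by -1.20, -2.23 and -3.50 on the log2 scale, and in H19 and Inmt the MT486-Cre libraries lay within or below the EV-Cre range of 7.49 to 17.8 CPM and 12.01 to 26.9 CPM. Fam69c (-2.25), Pdzk1ip1 (-1.98), Klhl13 and Arap2 were also among the 12 largest decreases, together with Mvd, Idi1 and Fdps. On the higher side, Mcam, a cell adhesion molecule (chr9:44134469-44142727, plus strand), held 25.2 and 33.2 CPM in WT-Cre and 66.7 and 121 CPM in MT486-Cre (1.64 ± 0.22, adjusted p = 0.00098). Kif5a, a kinesin motor, rose 2.75-fold. Col2a1, 1700029J07Rik (1.60) and U90926 were also among the 12 largest increases. Gpr35, a receptor coupled to G proteins, headed these 12 (2.87 ± 0.60, adjusted p = 0.0068) at a low level, 0.166 and 0.143 CPM in WT-Cre and 1.03 and 1.33 CPM in MT486-Cre.

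In other lists few genes or none were called between MT486-Cre and WT-Cre. Of 30 genes for G2/M and mitosis, such as Ccnb1, Plk1 and Mki67, none was called between MT486-Cre and WT-Cre by edgeR or DESeq2 (0 at an unadjusted p below 0.05), with log2 fold changes between -0.28 and 0.25 and a median half-width of the 95% interval of 0.75. Against EV-Cre 27 of the 30 were higher in MT486-Cre (background 4.80%) with a median of 1.32, and 28 were higher in WT-Cre (background 11.1%) with a median of 1.42. The 2 experiments differed in sign for this list, with medians of 0.17 and -0.33 for MT486-Cre over WT-Cre. None of 40 DNA replication genes was called by edgeR or DESeq2 (0 at an unadjusted p below 0.05), with a median of 0.09, and loss lowered 2 of them. The sign of the median changed when 1 library was left out in both the G2/M (-0.24 to 0.07) and the DNA replication list (-0.06 to 0.21). Among 34 interferon-stimulated genes, of which 26 were higher in EV-Cre with a median of 1.10, only Cmpk2 was called, and it was lower (-0.77), a call that held without the WT-Cre library of experiment 1 but was lost without any other 1 of the 4 libraries. The median of the list was 0.00. For 21 of the loss genes in it the 95% interval excluded a shift of 0.5 times the loss or more. The median difference of the Cre effects of this list was 0.75, in the direction of loss, and its median between MT486-GFP and WT-GFP was -0.74. This interval also excluded it for 13 genes of ATF4 stress and serine synthesis and 14 of hypoxia and glycolysis, where Atf3 and Slc7a11 (1.26), of 21 genes, and Gapdh and Ankrd37 (1.06), of 25 genes, were called higher. Both lists fell to 0 called genes without the WT-Cre library of experiment 2, as did the first without the MT486-Cre library of experiment 2 and the second without that of experiment 1, and Atf3 lost its call without any 1 of the 4 libraries. Gapdh was counted at under 8 CPM in all 4 libraries and its value is uncertain because of its many processed copies. Cdkn1a, which encodes the cell cycle inhibitor p21, held 24.3 and 21.7 CPM in WT-Cre, 38.0 and 27.5 CPM in MT486-Cre and 78.8 and 50.7 CPM in EV-Cre, and the difference between the rescues was not called (log2 fold change 0.50, 95% interval -0.04 to 1.04). Cdkn1c (-1.03), Cdkn2b (-0.73) and Cdkn2a (-0.58), other inhibitors of cyclin-dependent kinases, were called lower among 21 genes for G1 cyclins and inhibitors (14.3%, against 2.51% of all genes), 1 gene of the list, Myc (0.63), was called higher, and all 3 inhibitors also fell in EV-Cre. Without 1 library 2 to 4 genes of this list were called lower. Among 23 Trp53 targets Plk2 (0.86) and Btg2 (0.53) were higher and Sesn1 (-0.98) lower, and single genes were called among 13 metalloproteinases and inhibitors (Adamts4, -0.74), 14 MHC class I genes (Nlrc5, 0.51), 15 heat shock genes (Hspb8, 0.94) and 19 NRF2 antioxidant genes (Slc7a11), against 5.24% of all genes called. The call of Btg2 was lost without either library of MT486-Cre or WT-Cre from experiment 2. Each of the 4 single calls was lost without at least 1 of the 4 libraries, and that of Hspb8 without any 1 of them. Actb (0.21) and Eif1 (-0.21) were not called.

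**Figure D5:**
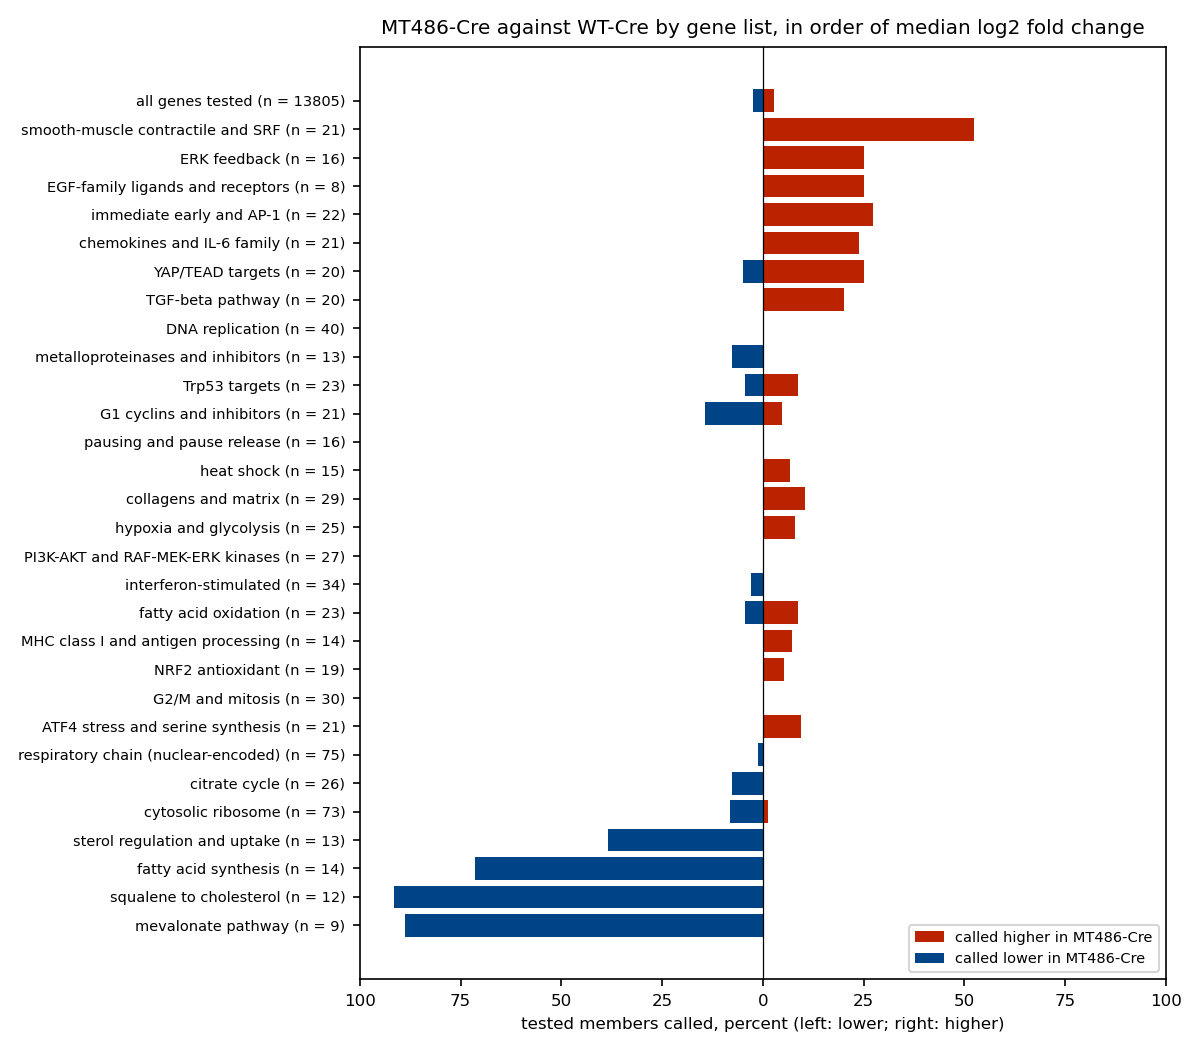
Share of the tested members of each gene list called lower (blue, to the left) or higher (red, to the right) in MT486-Cre against WT-Cre, in percent, with the lists in order of their median log2 fold change and all 13805 genes in the top bar. The mevalonate, squalene to cholesterol and fatty acid synthesis lists reach 88.9%, 91.7% and 71.4% lower, and the contractile list reaches 52.4% higher.

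The 2 rescue populations were compared without deletion in MT486-GFP and WT-GFP, parallel Ad-GFP controls taken at 7 days like the Cre groups, which share no library with the Cre groups. Here 8 genes were called (0.058%), 7 lower (0.0507%) and 1 higher (0.00724%). The count was 1 without WT-GFP replicate 1, 2 without replicate 2 of either group, 2 without the block and 37 by DESeq2. Klhl13, a substrate adaptor of a ubiquitin ligase (chrX:23219271-23365082, minus strand), held 6.89 and 5.29 CPM in WT-GFP and 1.73 and 1.37 CPM in MT486-GFP, and with Cre 7.37 and 7.01 CPM in WT-Cre and 1.70 and 1.46 CPM in MT486-Cre. The log2 fold change of Klhl13 was -1.97 with Ad-GFP and -2.19 with Ad-Cre. Ndn, an imprinted gene (-0.95 with Ad-GFP, -0.87 with Ad-Cre), Arap2 (-1.28 and -1.73), Plac8 (-0.65 and -0.73) and Col2a1 (1.66 and 1.83) were likewise called in both, which makes 5 genes. Oas1g, an interferon-stimulated gene, held 5.07 and 3.67 CPM in WT-GFP and 1.43 and 0.740 CPM in MT486-GFP, but 7.20 and 6.20 CPM in WT-Cre and 6.04 and 5.85 CPM in MT486-Cre. In the interferon list 1 of 34 genes was called with Ad-GFP. More widely, the genes called with Ad-Cre leaned the same way with Ad-GFP by a smaller amount. Of the 347 genes called lower with Ad-Cre 88.2% were below 0 with Ad-GFP, with a median of -0.22 against -0.76, and of the 376 called higher 85.6% were above 0 with Ad-GFP, with a median of 0.24 against 0.80. The sterol list had a median of -0.20 with Ad-GFP and none of its genes was called there.

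The difference of the Cre effects, MT486-Cre over MT486-GFP against WT-Cre over WT-GFP, was called at 32 genes (0.232%), 23 lower (0.167%) and 9 higher (0.0652%). All 32 had the direction of the loss of NELFB, and 30 were also called between MT486-Cre and WT-Cre in the same direction. Of the 23 lower genes 10 belong to sterol synthesis. Mvd held 109 and 98.5 CPM in WT-GFP and 100 and 59.5 CPM in MT486-GFP, and the difference of its Cre effects was -1.54 ± 0.19 (SE, adjusted p = 0.001). Scd2 (-1.34), Tm7sf2 (-1.37), Hmgcs1 (-1.34), Nsdhl (-1.30) and Scd1 (-1.18) were among the others. Barx2, a homeobox gene, was the largest of the lower genes with enough counts (-1.81), with 3.05 and 3.09 CPM in WT-GFP, 5.39 and 3.47 CPM in MT486-GFP, 3.60 and 2.53 CPM in WT-Cre and 1.43 and 1.02 CPM in MT486-Cre. Among the higher genes were Cnn1 (1.90) and Acta2 (1.82). Acta2 held 19.9 and 17.0 CPM in WT-GFP and 13.9 and 15.03 CPM in MT486-GFP, so the mutant was below WT in both experiments with Ad-GFP and above it in both with Ad-Cre. Ereg (1.14), Vamp1 (1.29), Ier5 (0.70) and Cpt1a (0.63) were also called. Without the block edgeR called 0 (260 at an unadjusted p below 0.05), DESeq2 with the block called 85, and without 1 library the count was 7 to 20, lowest without the WT-Cre library of experiment 1 or the MT486-GFP library of experiment 2.

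Other mutants of the series were set beside the same WT-Cre libraries. In MT194-Cre, whose NELFB does not bind NELFA or NELFC, 19 of the 21 sterol genes were called lower (background 4.9%) with a median of -1.38. In DMT-Cre, a further mutant, 20 were called lower (background 6.66%) with a median of -1.74, beside 19 and -1.35 in MT486-Cre. The contractile list had 7 genes called higher in MT194-Cre (background 6.04%) and 8 in DMT-Cre (background 7.57%), with a median of 0.44 in each, beside 11 and 0.64 in MT486-Cre. Klhl13, which was low in MT486 with Ad-GFP, was not called in MT194-Cre (-0.07) or DMT-Cre (-0.54), and Ndn was called higher in both (0.67 and 0.70). These comparisons share the WT-Cre libraries.

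The number of calls between the stable clones depended on the tool. MT486 clones 1 and 2 stood closer together than any other pair of clones: 23.9% of their genes differed at p below 0.05 in a binomial test and the biological coefficient of variation was 4.71%, against 37.1% and 36.7% for either with clone 3 and 21.7% to 46.6% among the WT(N48) clones. The 3 MT486 clones may therefore hold fewer than 3 independent samples. Nelfb was at 180, 158 and 135 CPM in the MT486 clones and at 241, 127 and 56.3 CPM in the WT(N48) clones. Of 13223 genes tested 38 were called (0.287%), 15 higher (0.113%) and 23 lower (0.174%), by edgeR and 584 by DESeq2 on the same libraries, and by edgeR without MT486 clone 1 or clone 2 the count was 3 or 2. The sterol list was below 0 at 20 of 21 genes with a median of -1.04, and 4 genes were called, among them Fdps, Hmgcs1 and Sqle (11 by DESeq2). Against the 3 clones labelled WT, an alternative chosen after seeing the data, edgeR called 0 of all genes (1176 at an unadjusted p below 0.05), and the sterol list was below 0 at 6 of 21 genes with a median of 0.20, so the direction of the list in the clones depended on which wild-type clones were used. Hmgcs1 held 154, 155 and 131 CPM in the MT486 clones and 299.8, 325 and 408 CPM in the WT(N48) clones (-1.23 ± 0.20, adjusted p = 0.0285), and the groups did not overlap. Insig1 held 35.8, 35.0 and 30.9 CPM against 97.8, 112 and 168 CPM (-1.89 ± 0.30, adjusted p = 0.026). Without either MT486 clone 1 or clone 2 none of the sterol genes was called, with list medians of -1.10 and -1.11. Leaving out any 1 of the 6 clones gave medians between -0.68 and -1.16. Genes higher in MT486-Cre did not stand out in the clones. Of 359 of them tested 191 were above 0 (53.2%, against 47.4% of all genes), and 2 were called. Acta2 held 163, 145 and 6.17 CPM in the MT486 clones and 1435, 768 and 3.40 CPM in the WT(N48) clones, so the spread among clones exceeded the difference in the populations. Of 323 genes lower in MT486-Cre 215 were below 0 in the clones (66.6%, against 52.6% of all genes), with a median of -0.33 and 8 called.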

How the data were processed

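Poly(A) RNA from 35 libraries was sequenced as 50 bp single reads. The authors aligned the reads with Bowtie2 to mm10, kept alignments of mapping quality 30 or more and counted them per gene with HTSeq, and the deposited files hold these raw counts for 24421 genes. Versions and the strand setting of the counting are not given in the sources used here. An aligner that does not splice loses reads across exon junctions, and the quality filter removes reads of near-identical copies. The 5 HTSeq summary lines were left out of library sizes.

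The counts were tested with edgeR 4.0.16 (quasi-likelihood, robust; R 4.3.3) after TMM scaling and filterByExpr, with Benjamini-Hochberg adjustment over 13805 genes. The 20 populations entered 1 model with 10 group means and the experiment number as a block. Same-numbered libraries deviated together in 45 of 45 pairs of groups (correlation 0.548 to 0.858), and the study names the replicates as independent experiments. The 15 clones were fitted without a block. DESeq2 1.42.0, its size factors, no filter, no replicate block and each library left out were the alternatives. With 2 populations a group, the p-values of the populations measure the spread left after the block takes out the mean difference between experiments. That spread was estimated from all 20 populations together. Without the block, the difference between experiments is part of the spread.

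Named genes were Nelfb and the other subunits, genes the study names, the 12 largest called changes each way with at least 50 counts on average and groups that do not overlap, up to 3 called genes of each list, and the largest changes of the other comparisons. Further list members are given with their values. Members and lists were chosen with earlier results of these data known. Genome positions are from GENCODE M21 and upstream sequences from RefSeq, matched for 10889 of 13805 genes. Some genes are not reported here.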

Additional observations from a re-analysis of the deposited data

Results flagged for a closer look

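The Cre effect (log2 Ad-Cre over Ad-GFP) differed between MT486 and WT at the genes below by a test of the difference itself, edgeR's quasi-likelihood test with adjustment over 13805 genes. It was lower in MT486 by -1.81 at Barx2, -1.54 at Mvd, -1.37 at Tm7sf2, -1.34 at both Hmgcs1 and Scd2, -1.30 at Nsdhl and -1.18 at Scd1. It was higher by 1.90 at Cnn1, 1.82 at Acta2, 1.80 at Oas1g, 1.29 at Vamp1, 1.14 at Ereg, 0.70 at Ier5 and 0.63 at Cpt1a. At Oas1g the 2 populations differed with Ad-GFP (called) and were not called different with Ad-Cre. Groups of 2 and 3 libraries were too small to look for outlying samples.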

How the results depend on the processing

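Without the replicate block, MT486-Cre against WT-Cre gave 15 calls, EV-Cre against EV-GFP 1626, MT486-GFP against WT-GFP 2, the difference of the Cre effects 0, MT486-Cre against EV-Cre 50, WT-Cre against EV-Cre 1018, loss genes in the direction of loss 12, and the gene lists 6. With an absolute log2 fold change above 1 these comparisons gave 223, 1344, 4, 19, 431 and 1192 calls and 155 loss genes. With no limit on size MT486-Cre against WT-Cre gave 1365, EV-Cre against EV-GFP 5935, MT486-Cre against EV-Cre 2470 and WT-Cre against EV-Cre 5531 calls, and 1103 loss genes. DESeq2 called 37 genes between MT486-GFP and WT-GFP, 85 in the difference of the Cre effects and 584 between the clones. The 4 libraries alone gave 846 calls with the block and 0 without it (827 at an unadjusted p below 0.05). Leaving out 1 library gave 239 to 711 calls for MT486-Cre against WT-Cre, 1 to 10 for MT486-GFP against WT-GFP (1 without WT-GFP replicate 1, 2 without MT486-GFP replicate 2 or WT-GFP replicate 2), 7 to 20 for the difference of the Cre effects, 374 to 966 for MT486-Cre against EV-Cre (374 without MT486-Cre replicate 1, 474 without EV-Cre replicate 2), 206 to 519 for loss genes, 51 to 104 for the gene lists (51 without MT486-Cre replicate 2, 54 without WT-Cre replicate 2) and 2 to 91 for the clones (9 and 18 without WT(N48) clone 1 or 2). A left-out arm of 1 population is assumed to vary like the other groups. DESeq2 with the block gave 729 calls for MT486-Cre against WT-Cre, 671 shared with the 723, its size factors 717 and no filter 684. No called gene among those named changed direction under the alternatives run, while small values that were not called did, such as Nelfa (-0.15 to 0.03). Of the 83 named genes called 74 lost their call without the block. With the clones labelled WT in place of WT(N48), an alternative chosen after seeing the data, 0 genes were called. The causes were not tested. Depth was similar in the 4 libraries, and genes of a few CPM such as Idi1 and Gpr35 have wide errors.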
